A study of Mus musculus with 12 samples.

Results

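The Hox genes of the mouse were taken as every gene row whose name is Hox, a cluster letter from a to d and a number. Of 38924 gene rows in each of the 12 libraries, 38 carried such a name: 11 of the Hoxa cluster, 10 of Hoxb, 9 of Hoxc and 8 of Hoxd. Hoxd4, the remaining gene of the 39 in the family, had no row of its own. The row named Hoxd3 holds 9 transcripts, of which the GENCODE M21 annotation assigns 5 to Hoxd3, 3 to Hoxd4 and 1 to the gene model Gm28230, so its values cover both genes. After a filter on low counts, 35 of the 38 rows entered the tests, among 17995 genes in all. Hoxb1, Hoxd12 and Hoxd13 did not pass it.

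The libraries come from whole spinal cords taken at an age of 1 week, 1 library per mouse. Each sex has 3 wt mice and 3 P278KY mice, which makes 4 labelled groups. All mice had the mixed B6J;CAST background, and P278KY mice carried a Gars allele, in the gene of glycyl-tRNA synthetase, over a wt allele. The labels name no transgene, Cre line or promoter. A library is named below by its group followed by its mouse's number. The labels name whole spinal cord and give no segment or length of the dissected piece. Replicates are separate mice, so p-values measure the spread between these mice, and no date or litter was used.

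Hox genes encode homeodomain transcription factors that give cells along the body axis their position. Within each cluster the genes lie in the order of their paralog numbers, and low-numbered genes are used from the hindbrain downward while high-numbered genes are used only toward the tail. In the spinal cord, Hoxa5 and Hoxc5 are known from phrenic motor neurons of the neck, Hoxc6 and Hoxc8 from the forelimb level, Hoxc9 from the thoracic level, and Hoxc10 and Hoxd10 from the hindlimb level. The genes numbered above those mark the lumbosacral and tail end.

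The clusters lie on 4 chromosomes in the GRCm38 build: Hoxa on chr6, Hoxb at chr11:96194316-96368256, Hoxc at chr15:102921103-103036852 and Hoxd at chr2:74668310-74765142. Promoter windows of 300 bases, from 250 bases before to 50 after a transcript start, were found for 21 of the 38 rows in the RefSeq table for GRCm38.p6. The 4 printed here belong to the 2 members with the largest and the 2 with the smallest spread between libraries among those found, and CpG dinucleotides are in capitals. Hoxd11 (chr2:74679308-74679607, plus strand) and Hoxa13 (chr6:52260831-52261130, minus strand) varied most, and Hoxd8 (chr2:74704365-74704664, plus strand) and Hoxb4 (chr11:96318017-96318316, plus strand) varied least.
Hoxd11: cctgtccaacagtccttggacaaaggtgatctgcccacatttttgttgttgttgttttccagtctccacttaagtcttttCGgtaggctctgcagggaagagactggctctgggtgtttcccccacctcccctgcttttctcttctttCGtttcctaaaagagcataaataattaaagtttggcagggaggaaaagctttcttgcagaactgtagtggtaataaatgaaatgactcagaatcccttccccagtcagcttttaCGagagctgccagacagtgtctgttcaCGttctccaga
Hoxa13: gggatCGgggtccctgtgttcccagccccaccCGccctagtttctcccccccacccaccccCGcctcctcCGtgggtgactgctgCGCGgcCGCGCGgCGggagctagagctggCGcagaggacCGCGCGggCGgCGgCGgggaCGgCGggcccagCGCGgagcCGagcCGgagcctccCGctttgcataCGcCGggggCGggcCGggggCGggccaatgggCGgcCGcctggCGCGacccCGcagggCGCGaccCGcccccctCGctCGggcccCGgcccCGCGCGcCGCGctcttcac
Hoxd8: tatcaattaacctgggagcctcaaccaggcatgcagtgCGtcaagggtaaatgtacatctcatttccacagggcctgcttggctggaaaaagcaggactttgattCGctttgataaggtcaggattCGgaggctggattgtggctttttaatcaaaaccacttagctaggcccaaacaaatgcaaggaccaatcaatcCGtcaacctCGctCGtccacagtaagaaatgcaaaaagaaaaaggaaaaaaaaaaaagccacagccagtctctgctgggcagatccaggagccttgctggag
Hoxb4: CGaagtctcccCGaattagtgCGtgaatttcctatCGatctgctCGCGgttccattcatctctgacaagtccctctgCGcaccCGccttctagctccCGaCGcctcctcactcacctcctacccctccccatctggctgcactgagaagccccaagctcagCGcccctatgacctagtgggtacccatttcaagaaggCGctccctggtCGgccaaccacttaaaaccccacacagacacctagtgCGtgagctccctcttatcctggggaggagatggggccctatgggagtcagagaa
The Hoxa13 window held 45 CpG dinucleotides at 81.0% GC, the Hoxb4 window 14, the Hoxd8 window 6 and the Hoxd11 window 4. Both members that varied most therefore stood at opposite ends of CpG content. Over the 23 windows of Hox members the median was 15 CpG, 58.0% GC and an observed over expected CpG ratio of 0.657, against 7, 52.7% and 0.384 over 32851 windows of all genes. The letters TATAAA on either strand occurred in 13% of the Hox windows and in 13.6% of all windows, and in none of the 4 printed.

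Library totals ran from 27713981 to 43219891 expected counts. Xist, the RNA of the inactive X chromosome, went against the labelled sex in 2 wt libraries: it stood at 0.533 CPM (counts over the library total after TMM adjustment) in female wt 14 and at 860 CPM in male wt 19. The labels were kept, and the edgeR tests are also given without both. Gars stood at 124 ± 6.74 CPM over the 6 wt libraries and at 131 ± 7.36 CPM over the 6 of P278KY (SD; exact two-sided permutation test, p = 0.132), and since the allele is named for a change in the protein this level does not check the genotype labels. The tissue label was read against defining markers. The neuronal RNA Snap25 ran from 450 to 584 CPM and the spinal glycine transporter Slc6a5 from 208 to 331 CPM, while the forebrain and midbrain gene Otx2 was at 0 in all 12 libraries and Emx1 and Six3 at most 0.0704 CPM. Neurod6, listed with the forebrain genes, was the exception at 10.2 to 15.3 CPM. RNA of neighbouring tissue was present at very unequal levels, with a list of 10 skeletal muscle genes between 14.6 and 2660 CPM in sum. In bulk tissue, fewer cells of a type and less RNA per cell cannot be told apart.

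Levels of different genes are compared in TPM, the deposited value per transcript length and library total. The Hox genes together held 726 to 955 TPM per library, with means of 840 ± 103 for wt and 811 ± 53.0 for P278KY (SD over 6 libraries). Their level peaked in the middle of the clusters. Paralogs 7 to 9 held 55.9% ± 4.37 of the summed Hox TPM (SD, n = 12), paralogs 4 to 6 held 18.1% ± 4.11, paralogs 1 to 3 held 11.3% ± 1.27 and paralogs 10 to 13 held 14.7% ± 8.52. The joint Hoxd3 row was counted whole in paralogs 1 to 3, so the Hoxd4 transcripts it holds are missing from paralogs 4 to 6. By cluster, Hoxb held 43.9% ± 1.99, Hoxa 23.7% ± 1.67, Hoxc 18.6% ± 1.27 and Hoxd 13.9% ± 2.82. Of the 38 rows, 24 had a mean above 10 TPM, 9 between 1 and 10 TPM, and 5 at or under 1 TPM.

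**Figure D1:**
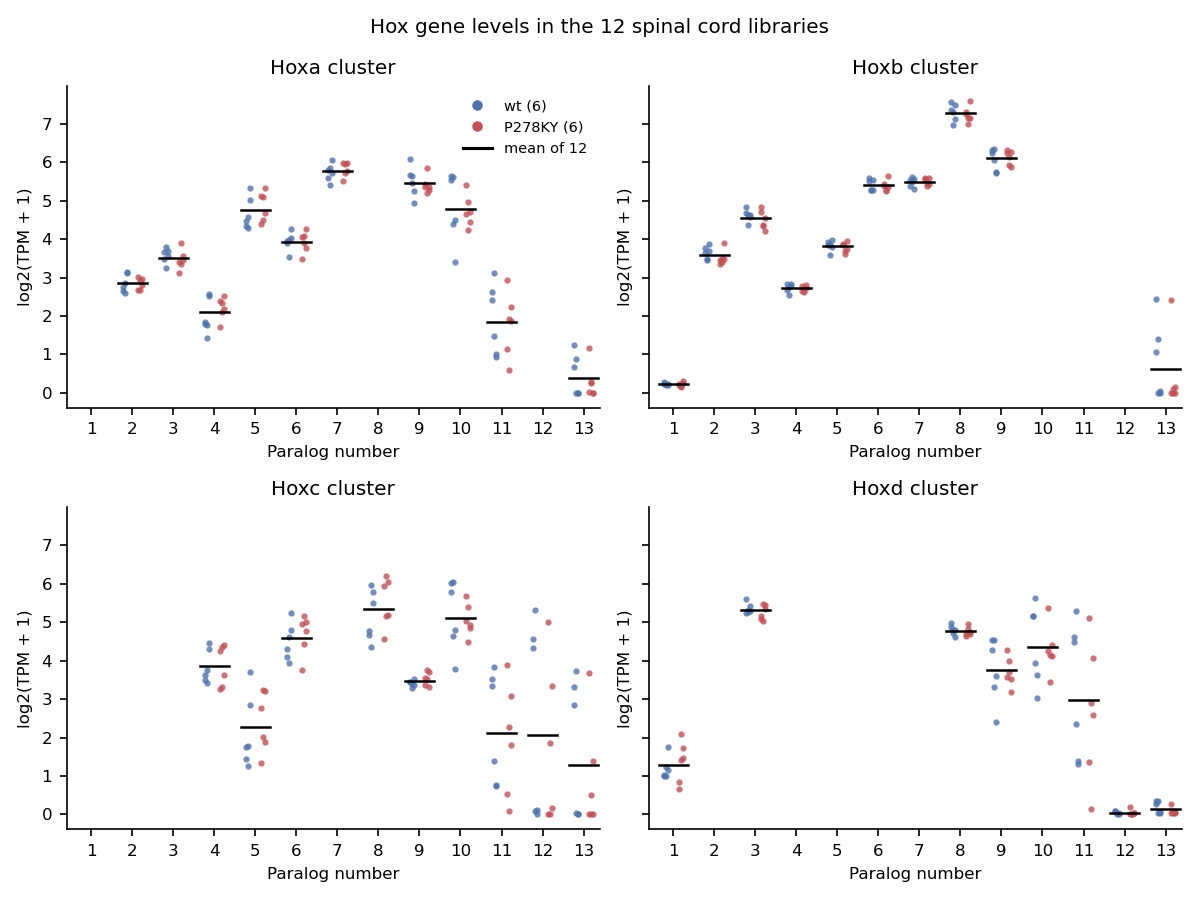
Level of 37 of the 38 Hox rows as log2(TPM + 1) on the vertical axis against paralog number on the horizontal axis, 1 panel per cluster, with 1 point per library (blue wt, red P278KY) and a bar at the mean of 12. Points of Hoxb2 to Hoxb8, Hoxa7 and Hoxd8 lie close together, while those of Hoxc11, Hoxc12, Hoxc13 and Hoxd11 spread from near 0 up to several log2 units in both genotypes.

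Hoxb8, which acts in sensory and dorsal horn circuits, was the most abundant member at 155 ± 22.8 TPM (SD, n = 12) and alone held 18.7% ± 1.89 of the Hox sum. Its wt libraries ran from 123 to 188 TPM with a median of 160, and its P278KY libraries from 126 to 193 TPM with a median of 146, so the genotypes overlapped fully. Hoxb9 came next at 68.2 ± 10.4 TPM. The leading genes of the other clusters were Hoxa7 at 54.3 ± 7.69 TPM, Hoxc8 at 43.4 ± 18.6 TPM and the joint Hoxd3 row at 38.7 ± 4.62 TPM. In the order of levels, Hoxa7 was followed by Hoxb7 (44.1 ± 3.06 TPM), Hoxa9 (43.9 ± 10.1 TPM), Hoxc8, Hoxb6 (41.3 ± 4.08 TPM), Hoxd3 and Hoxc10 (37.3 ± 17.3 TPM). The steps from Hoxb9 to Hoxa7 and from Hoxa7 to Hoxb7 were larger than the SD of either gene, and the steps between neighbours from Hoxb7 down to Hoxc10 were not. At the bottom, Hoxb1, a gene of the hindbrain, had 0.174 ± 0.0348 TPM, which is 3 to 8 counts per library. Hoxd12 reached at most 6 counts in any library. Hoxd13 had 9, 13, 13 and 8 counts in female wt 1, female wt 2, male wt 6 and female P278KY 4, and 1 to 3 in the others.

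Some gene models overlap. The annotated span of Hoxc5 covers those of Hoxc6, Hoxc8 and Hoxc9 and overlaps that of Hoxc10. In female wt 14 the counts of Hoxc5 and Hoxc10 were fractional, at 525.62 and 390.38. The span of Hoxa3 covers Hoxa4, Hoxa5 and Hoxa6, and the Hoxa3 and Hoxd11 rows each hold 1 transcript of another gene model. Fragments shared by such models can be divided between them in the deposited expected counts, so the split between these neighbours is uncertain.

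The spread between mice differed by paralog number. The SD of log2 CPM over the 12 libraries had a median of 0.43 over the 35 tested members, against 0.16 over all 17995 genes tested. By paralog class the median was 0.22 for 1 to 3, 0.43 for 4 to 6, 0.23 for 7 to 9 and 2.0 for 10 to 13. An SD above 0.5 was found in 17 of the 35 members (48.6%) and in 12.1% of all genes tested, and all 10 tested members of paralogs 10 to 13 were among them. By cluster, 8 of 9 tested Hoxc members passed that value and 1 of 9 Hoxb members, Hoxb13. The 4 steadiest members were Hoxd8, Hoxb4, Hoxb7 and Hoxb6, with SDs of 0.11 to 0.12. Hoxd8 ran from 28.5 to 36.9 CPM in wt and from 31.7 to 37.6 CPM in P278KY, and Hoxb4, one of the most rostrally used genes tested, from 11.7 to 14.3 CPM and from 11.6 to 14.4 CPM.

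The 4 most variable members were Hoxc13 (SD 3.6), Hoxc12 (3.5), Hoxb13 (2.6) and Hoxc11 (2.2), all from the tail end of their clusters. Their order depends on the scale, since on log2(TPM + 1) the SDs were 1.6, 2.3, 0.96 and 1.4. Hoxc13 had 269, 558 and 0 counts in female wt 1, 2 and 14, and 417, 1 and 0 counts in male wt 6, 9 and 19. In P278KY it had 440, 18 and 0 counts in females 4, 7 and 10, and 0, 0 and 69 counts in males 3, 5 and 13. It was thus high in 4 libraries, at 7.68 to 16.4 CPM, low in 2, and at 0 or 1 count in the other 6, with wt and P278KY mice on each side. A count of 0 allows up to 0.07 to 0.11 CPM at these depths (3 counts per library, counting error only).

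Hoxc12, the neighbour of Hoxc13, gave the same split: 8.57, 18.9, 10.4 and 14.7 CPM in female wt 1, female wt 2, male wt 6 and female P278KY 4. Its next values were 4.44 CPM in male P278KY 13 and 1.24 CPM in female P278KY 7, and the other 6 libraries had at most 2 counts. Hoxb13, from another chromosome, had its 4 highest values in the same 4 libraries, at 1.2, 1.97, 4.89 and 5.07 CPM in female wt 1, female wt 2, male wt 6 and female P278KY 4, and at most 4 counts elsewhere. Hoxa13 followed with 0.657, 1.09, 1.69 and 1.48 CPM in those libraries and at most 3 counts in the others. Members of 3 clusters that do not share a chromosome therefore agreed on the 4 libraries with the most tail-end Hox RNA. They did not agree below those. Male P278KY 13 had 141 counts of Hoxc12 and 69 of Hoxc13, but 4 of Hoxb13 and 0 of Hoxa13.

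Single labelled groups held both extremes. Between female wt 2 and female wt 14, Hoxc12 was at least 201-fold higher in the former and Hoxc13 at least 174-fold higher (3 counts taken for the library at 0). Between female P278KY 4 and female P278KY 10, Hoxc13 was at least 164-fold higher and Hoxb13 at least 53.7-fold higher in the former. In male wt 6, Hoxb13 was at least 46.0-fold higher than in male wt 9. These pairs were chosen after their values were seen and show the range within a group, with no test.

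One step toward the head, paralogs 10 and 11 were counted in every library over a wide range. Hoxc10, which specifies hindlimb-level motor neurons, ran from 12.2 to 65.9 CPM in wt with a median of 39.4, and from 21.9 to 49.8 CPM in P278KY with a median of 31.5. Its lowest value was in female wt 14 and its highest in female wt 2, and Hoxa10 (9.44 to 49.4 CPM) and Hoxd10 (9.88 to 70.7 CPM) had the same 2 libraries at their ends. Hoxd11 ran from 0.183 CPM in male P278KY 5 to 29.9 CPM in female wt 2, and Hoxc11 from 0.073 CPM in male P278KY 5 to 14.7 CPM in female P278KY 4. Hoxa11 spanned 0.767 to 11.4 CPM between male P278KY 5 and female wt 2. Paralog 9 was uneven by cluster: Hoxd9 spanned 5.46-fold, from 4.8 to 26.2 CPM, while Hoxc9 spanned 1.38-fold.

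Rostral Hoxc and Hoxa members ran the other way. Hoxc5 was highest in female wt 14 at 16.5 CPM, male P278KY 5 at 14 CPM and male P278KY 13 at 13.5 CPM, and lowest in female wt 2 at 2.27 CPM. Hoxc8 was highest in male P278KY 5 at 91.7 CPM and lowest in female wt 2 at 24.3 CPM, and its 4 lowest libraries, at 24.3 to 30.5 CPM, were the 4 with high Hoxc13. Hoxc4 ran from 9.01 to 21.7 CPM, Hoxc6 from 8.66 to 29.0 CPM, Hoxa4 from 1.38 to 3.99 CPM and Hoxa5 from 17.8 to 39.3 CPM. For Hoxb4 to Hoxb8 the highest library stood at most 1.56-fold above the lowest. Male P278KY 13 combined high rostral values (Hoxc4 at 21.7 CPM, the highest of 12) with tail-end RNA (Hoxc12 at 4.44 CPM, the fifth highest).

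**Figure D2:**
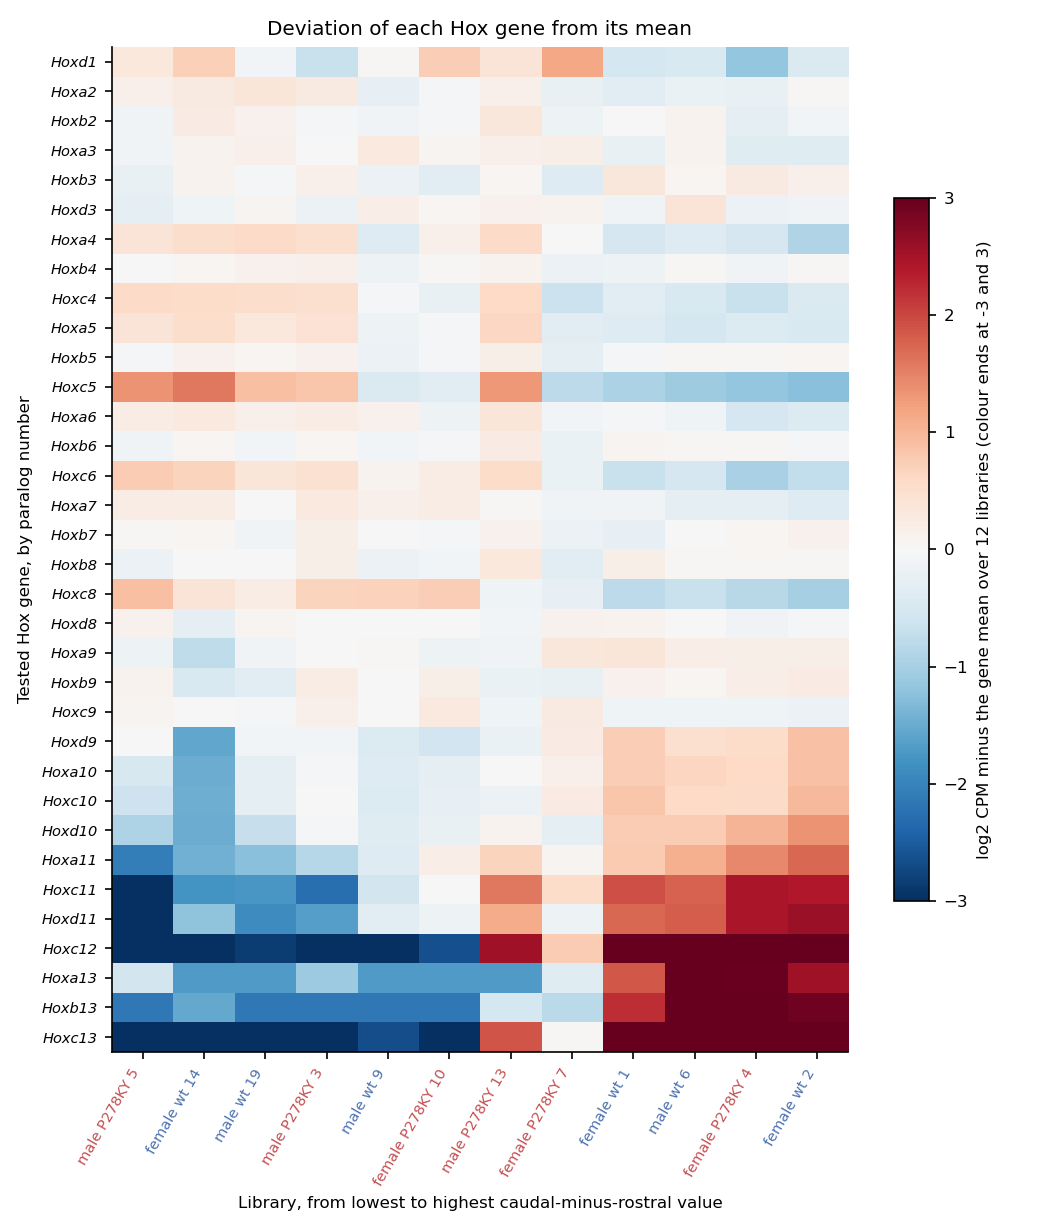
Log2 CPM of 34 of the 35 tested Hox genes (rows, by paralog number) minus its mean over the 12 libraries (columns, ordered by paralogs 10 to 13 minus paralogs 4 to 6), with red above and blue below the mean and column names blue for wt and red for P278KY. The 4 libraries at the right are red for paralogs 10 to 13 and blue for Hoxa4, Hoxc4, Hoxc5, Hoxc6 and Hoxc8, while Hoxb2 to Hoxb8 stay pale throughout.

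A caudal-minus-rostral value was formed per library as the mean log2 CPM of the 10 tested members of paralogs 10 to 13 minus that of the 9 of paralogs 4 to 6. It had an SD of 2.14 over the 12 libraries. In order it was -4.86 in male P278KY 5, -4.62 in female wt 14, -4.16 in male wt 19, -4.09 in male P278KY 3, -3.29 in male wt 9 and -3.23 in female P278KY 10. Then came -2.18 in male P278KY 13, -1.90 in female P278KY 7, -0.0874 in female wt 1, 0.3 in male wt 6, and 0.713 in each of female P278KY 4 and female wt 2. Means were -1.86 ± 2.43 for wt and -2.59 ± 1.97 for P278KY (SD over 6 libraries), a difference of -0.734 that is smaller than either SD. Female wt mice spanned -4.62 to 0.713, male wt mice -4.16 to 0.3 and female P278KY mice -3.23 to 0.713, while the 3 male P278KY libraries stood at -4.86, -4.09 and -2.18. The share of Hox TPM held by paralogs 10 to 13 ran from 4.1% in female wt 14 to 29.6% in female wt 2. It rests largely on the same genes as the value above, so it is no separate observation. Its order was not identical, with 6.43% in male P278KY 5.

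**Figure D3:**
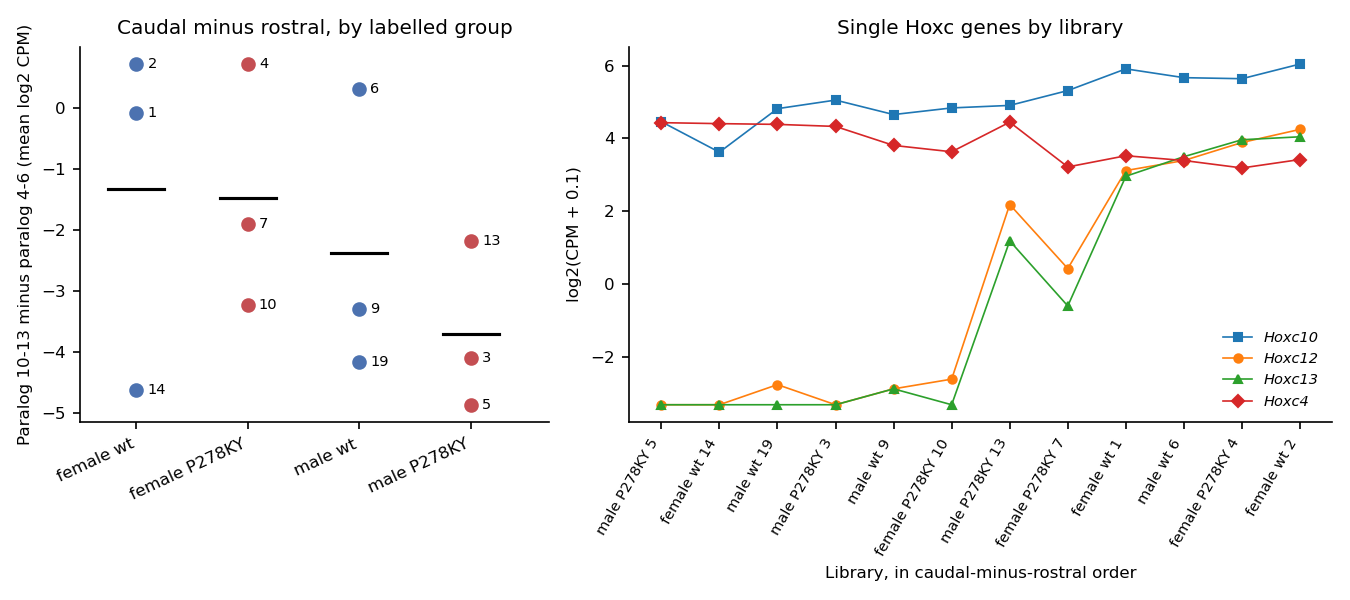
Left, the caudal-minus-rostral value (mean log2 CPM of paralogs 10 to 13 minus paralogs 4 to 6) of each library by labelled group, with mouse numbers and a bar at the group mean. Right, log2(CPM + 0.1) of 4 Hoxc genes by library in the order of that value: Hoxc12 and Hoxc13 go from the floor to above 2 while Hoxc4 goes down by about 1.

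Marker RNA of other tissues is given beside that order, and its part in the order was not tested. Sp7, a regulator of bone-forming cells, was lowest in female wt 2, male wt 6, female P278KY 4 and female wt 1, at 2.74, 2.82, 3.06 and 3.6 CPM, and stood at 5.68 to 8.44 CPM elsewhere. These are the 4 libraries with high Hoxc13. A list of 9 sensory ganglion genes summed to 354 CPM in female wt 14 and to 19.3 to 37.9 CPM in the others, with its defining gene Scn10a at 96.9 CPM there and at most 2.43 CPM elsewhere. Skeletal muscle genes peaked at 2660 CPM in male P278KY 3 and 1440 CPM in female P278KY 7, and were lowest at 14.6 CPM in female wt 2. The list of 10 spinal neuron genes ran only from 3630 to 4430 CPM.

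Fixed pairs of members were correlated over the 12 libraries in log2 CPM, to ask whether paralogs move together. Of 13 planned relations, 9 could be computed, the rest needing Hoxd4. All points share the scaling of their library. The 3 paralog 10 genes moved together: Pearson's r was 0.99 for Hoxa10 and Hoxc10, 0.95 for Hoxa10 and Hoxd10, and 0.94 for Hoxc10 and Hoxd10, each with the smallest p that 100000 permutations can give (1e-05; adjusted over 9 relations 3e-05) and Spearman's rho of 0.99, 0.9 and 0.92 (permutation p of 1e-05, 0.00013 and 7e-05, adjusted 9e-05, 0.00039 and 0.000315). Without female wt 2 and female wt 14, the 2 libraries farthest from the median, r was 0.99, 0.92 and 0.89. Hoxa4 and Hoxc4 also moved together (r = 0.84, permutation p = 0.00247, adjusted 0.00556; rho = 0.8, permutation p = 0.00252, adjusted 0.00567; r = 0.82 without 2 libraries).

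Hoxc10 ran against Hoxa4 (r = -0.75, permutation p = 0.00418, adjusted 0.00752; rho = -0.72, permutation p = 0.0104, adjusted 0.0176) and against Hoxc4 (r = -0.73, permutation p = 0.00645, adjusted 0.00967; rho = -0.71, permutation p = 0.0118, adjusted 0.0176). Without the 2 farthest libraries these were -0.67 and -0.71. For Hoxc10 and Hoxb4 no relation passed the test (r = -0.31, permutation p = 0.325; rho = -0.2, permutation p = 0.529; neither altered by adjustment; r = -0.39 without 2 libraries). Hoxb4 was only loosely tied to its paralogs. With Hoxa4 it gave r = 0.6 (permutation p = 0.042, adjusted 0.0472; rho = 0.6, permutation p = 0.043, adjusted 0.0553; r = 0.78 without 2 libraries), and with Hoxc4 r = 0.68 (permutation p = 0.0194, adjusted 0.025; rho = 0.55, permutation p = 0.067, adjusted 0.0754). Without female wt 1 and female P278KY 7 the latter stood at 0.58 and no longer passed (adjusted permutation p = 0.0923). After 1 mean was taken out for each labelled group, the 3 paralog 10 relations stood at 1.0, 0.95 and 0.94 and Hoxa4 with Hoxc4 at 0.92, while both Hoxb4 relations to paralog 4 genes dropped to 0.5 and 0.47 and no longer passed (adjusted permutation p of 0.131 and 0.135).

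**Figure D4:**
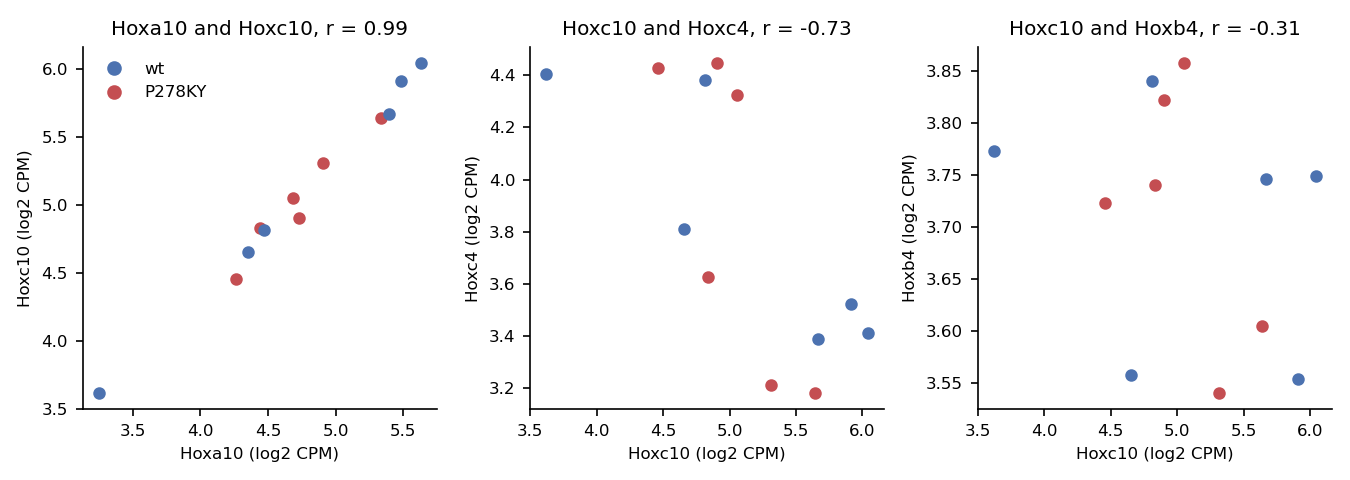
Log2 CPM of 1 Hox gene against another in the 12 libraries (blue wt, red P278KY). Hoxa10 and Hoxc10 fall on a line (r = 0.99), Hoxc10 and Hoxc4 slope down (r = -0.73), and Hoxc10 and Hoxb4 show no clear slope (r = -0.31), with Hoxb4 covering only about 0.3 log2 units.

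The comparison of P278KY with wt asked whether cord Hox RNA differs between the genotypes at an age of 1 week. None of the 35 tested members passed an adjusted p of 0.05 in edgeR's quasi-likelihood test with labelled sex as a term, where 0.00556% of all genes tested passed (1 gene, Fgf21). At an unadjusted p under 0.05 it was also 0 of 35 members, against 4.09% of all genes tested. DESeq2 called 0 members as well, with 1 at an unadjusted p under 0.05, where its background was 0.183% adjusted and 4.42% unadjusted. The median fitted log2 fold change was -0.003 over members and -0.006 over all genes tested, with 17 members fitted higher and 18 lower, a split that shifts with the scaling because several members lie within 0.01 of 0.

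All 35 members had an adjusted p of 1.0 by edgeR, and the 6 with the smallest p are described here. Hoxc9, a thoracic-level gene, ran from 11.4 to 12.8 CPM in wt with a median of 12, and from 11.7 to 15.7 CPM in P278KY with a median of 13.9. The genotypes overlapped. Its fitted difference of P278KY over wt was 0.18 ± 0.085 on the log2 scale (SE), with an unadjusted edgeR quasi-likelihood p of 0.0549. The joint Hoxd3 row stood at 46.5 to 65.6 CPM in wt and 42.0 to 54.9 CPM in P278KY (-0.11 ± 0.098), and Hoxb3, used from the hindbrain down, at 13.8 to 20 CPM and 12 to 19 CPM (-0.13 ± 0.12). Hoxd1, known from pain-sensing neurons, stood at 0.914 to 2.23 CPM and 0.563 to 3.1 CPM (0.39 ± 0.37). Hoxa7 stood at 41.8 to 63.1 CPM and 44.5 to 66.2 CPM (0.12 ± 0.12), and Hoxa4 at 1.38 to 3.99 CPM and 1.83 to 3.94 CPM (0.27 ± 0.26). Across all members, the 6 wt and 6 P278KY libraries overlapped in every one, where 0.222% of all genes tested had groups that did not.

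The 10 tested members of paralogs 10 to 13 were all fitted lower in P278KY, at -1.47 to -0.21, with a median of -0.49. These 10 values are not independent, since the genes follow the same libraries, and the standard errors were 0.37 to 1.99. Hoxc13, at 5.89 ± 7.01 CPM for wt against 3.04 ± 6.16 CPM for P278KY (SD over 6 libraries), had a log2 fold change of -1.41 ± 1.82. Without male wt 6 the values of Hoxc13, Hoxc12, Hoxb13, Hoxc11, Hoxa13 and Hoxa11 turned positive, at 0.55, 0.64, 0.86, 0.33, 0.09 and 0.11. Paralogs 4 to 6 had 7 of 9 fitted higher with a median of 0.01, where Hoxa6, Hoxb4 and Hoxb6 turned negative with library totals in place of TMM, and paralogs 7 to 9 had 7 of 9 with a median of 0.06, where Hoxa9 did.

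The long standard errors of the tail-end genes show in the plot of fold changes by gene.

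**Figure D5:**
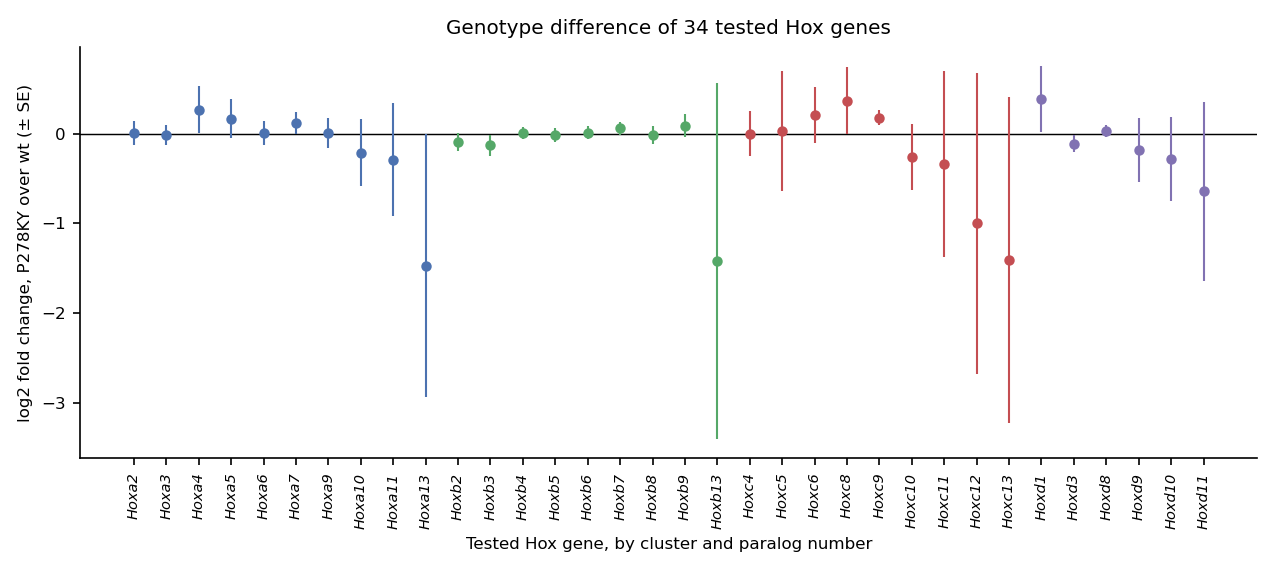
Fitted log2 fold change of P278KY over wt (edgeR, point) with its SE (bar) for 34 of the 35 tested Hox genes, ordered by cluster and paralog number and coloured by cluster. Bars are short for Hoxb2 to Hoxb9 and long for paralogs 11 to 13, and the adjusted p was 1.0 for each.

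Without female wt 14 and male wt 19, the 2 libraries whose Xist went against the label, again 0 of 36 tested members passed an adjusted p of 0.05 in edgeR, where 0.0% of 18168 genes did. At an unadjusted p under 0.05 there were then 6 members, against 5.76% of all genes. They were Hoxa4 (0.74 ± 0.16, adjusted p = 0.259), Hoxa5 (0.49 ± 0.13), Hoxc5 (1.12 ± 0.33) and Hoxc6 (0.62 ± 0.22), fitted higher, and Hoxd13 (-1.58 ± 0.65) and Hoxc10 (-0.55 ± 0.23), fitted lower. Both libraries left out were wt and followed male P278KY 5 at the rostral end of the order above. Leaving out female wt 14 alone moved Hoxa4 to 0.53 and Hoxa5 to 0.39 and gave 5 members at an unadjusted p under 0.05 (4.03% of all genes), and leaving out female P278KY 4 alone gave 4 (3.7%). Each of the other 10 libraries left out gave 0 or 1.

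The Hoxa cluster was of interest because it lies on chromosome 6, 2.78 to 2.88 Mb from the start of Gars (chr6:55038007-55079500, GRCm38). None of its 11 members was called, and 7 were fitted higher and 4 lower, of which Hoxa2, Hoxa6 and Hoxa9 turned from higher to lower with library totals in place of TMM. Hoxa2, Hoxa3, Hoxa6 and Hoxa9 stood within 0.01 of 0 on the log2 scale, with standard errors of 0.11 to 0.17. Hoxa5 was fitted at 0.17 ± 0.22, Hoxa10 at -0.21 ± 0.37, Hoxa11 at -0.29 ± 0.63 and Hoxa13 at -1.47 ± 1.47. Gars itself was fitted at 0.07 ± 0.05. Of 21 tested genes in a list of 24 chromosome 6 genes around Hoxa and Gars, Gars included, 0 were called and 14 were fitted higher, with a median log2 fold change of 0.043 beside -0.006 over all genes. The smallest p was that of Cbx3, which encodes a chromatin protein of the HP1 kind and lies 3.57 Mb from Gars on the far side of Hoxa, at 131 ± 19.9 CPM for wt against 184 ± 7.93 CPM for P278KY (SD over 6 libraries; 0.49 ± 0.079, adjusted p = 0.124 by edgeR).

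Labelled sex gave no called member either (edgeR, 0 of 35, background 0.0%), with 2 members at an unadjusted p under 0.05 against 4.6% of all genes, and DESeq2 called 0 (background 0.15%), with 2 at an unadjusted p under 0.05 (background 5.27%). By edgeR these were Hoxa6, with mean 14.3 CPM in males and 11.6 CPM in females (0.3 ± 0.13), and Hoxc4, with 18.1 CPM and 12.3 CPM (0.56 ± 0.25). Within females 0 of 35 were called (background 0.0%), and 0 had an unadjusted p under 0.05 against 10.7% of all genes. The smallest p values there belonged to Hoxc9 (0.25 ± 0.12, adjusted p = 0.482 by edgeR) and Hoxb3 (-0.31 ± 0.17). Within males 0 of 35 were called (background 0.0%), and 1 had an unadjusted p under 0.05 against 4.91%: Hoxd3, at 65.6, 58.1 and 53.6 CPM in wt and 44.6, 42.0 and 54.9 CPM in P278KY (-0.33 ± 0.11, adjusted p = 0.942 by edgeR). Hoxa5 was next, at 17.8, 23.2 and 32.2 CPM in male wt and 34.6, 33.8 and 39.3 CPM in male P278KY (0.56 ± 0.27). Its male groups did not overlap, and neither did those of Hoxa6, Hoxb7 and Hoxc6, which makes 4 of 35 members where 11.5% of all genes tested had male groups apart; in females it was 0 of 35 against 15.3%.

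The difference between the sexes in the genotype effect was tested as an interaction, which no member passed (edgeR, 0 of 35, background 0.0%). At an unadjusted p under 0.05 there were 2 members against 10.9% of all genes. Hoxd3 was fitted at 0.12 in females and -0.33 in males, a difference of 0.44 ± 0.15 (adjusted p = 0.337 by edgeR), and Hoxc4 at -0.5 and 0.48, a difference of -0.98 ± 0.41 (adjusted p = 0.432). DESeq2 called 0 members within females, within males and for the interaction, where its backgrounds were 1.64%, 0.189% and 1.55%. At an unadjusted p under 0.05 it had 0, 2 and 4 members, where its backgrounds were 11.4%, 5.01% and 11.4%.

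Without female wt 14 and male wt 19, 0 of 36 members were called by edgeR for labelled sex (background 0.055%), within females (0.0605%), within males (0.022%) or for the interaction (0.0275%), but more members passed an unadjusted p of 0.05. For sex there were 7 members, against 4.52% of all genes. Hoxc5 (1.32 ± 0.31, adjusted p = 0.711), Hoxc4 (0.7 ± 0.18), Hoxa5 (0.49 ± 0.13), Hoxa6 (0.4 ± 0.11), Hoxc6 (0.72 ± 0.21) and Hoxa4 (0.48 ± 0.16) were fitted higher in males, and Hoxc10 (-0.57 ± 0.22) lower. Leaving out female wt 14 alone gave 9 members for sex (4.94% of all genes) and leaving out male wt 6 alone gave 5 (5.47%). Within females it was 1 member, Hoxa4 (0.61 ± 0.23), against 11% of all genes, and 3 (12.6%) with female P278KY 4 alone left out.

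Within males, now 2 wt against 3 P278KY libraries, 7 members had an unadjusted p under 0.05, against 8.72% of all genes. They were Hoxc5 (1.9 ± 0.3, adjusted p = 0.104 by edgeR), Hoxa5 (0.8 ± 0.13), Hoxc4 (0.79 ± 0.16), Hoxa4 (0.87 ± 0.23), Hoxa2 (0.41 ± 0.13) and Hoxc6 (0.76 ± 0.32), fitted higher in P278KY, and Hoxd3 (-0.4 ± 0.12), fitted lower. With male wt 19 alone left out there were 6 (7.63%), with female wt 14 alone 4 (5.72%), and with male wt 6 alone 0 (3.56%). For the interaction it was 5 members, against 12.7%: Hoxc4 (-0.9 ± 0.22, adjusted p = 0.19 by edgeR), Hoxc5 (-1.52 ± 0.4), Hoxa5 (-0.63 ± 0.19), Hoxd3 (0.51 ± 0.17) and Hoxa2 (-0.42 ± 0.19). Leaving out single libraries gave 1 to 5 for the interaction, with 5 without female wt 1, female wt 2 or male wt 19 (9.25%, 10.7% and 11.7% of all genes), 4 without female P278KY 4 (14.3%) and 3 without male P278KY 5 (8.28%).

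Genes that work with or upon Hox genes were read from the same genotype fit, and no member of any list was called. The 9 cofactor genes of the Pbx and Meis kind, whose proteins bind DNA beside Hox proteins, had a median log2 fold change of 0.036, with Pbx3 at 0.1 ± 0.039 and Meis1 at 0.14 ± 0.052 showing the smallest p. Of these 9, 5 were fitted higher. Polycomb genes, which keep Hox clusters silent where they are not used, stood at a median of 0.004 over 17, and trithorax genes, which keep them active, at -0.021 over 12, and the respective leaders were Bmi1 (0.14 ± 0.072) and Dpy30 (-0.1 ± 0.047). Retinoid genes, which set Hox boundaries in the embryo, stood at -0.067 over 15 tested of 17. Of 9 homeobox genes that flank the clusters or resemble them, 4 were tested and had a median of -0.127, led by Mnx1 (-0.3 ± 0.15). Median SDs of log2 CPM over the libraries were 0.11 for cofactors, 0.13 for Polycomb and 0.093 for trithorax genes, all under the 0.16 of all genes tested. Beside the 2.0 of Hox paralogs 10 to 13, lists of other tissues also had large median SDs, at 2.8 for skeletal muscle, 1.6 for sensory ganglion and 1.4 for Schwann cell genes. Motor column genes had a median of -0.085 over 12, with Lhx4 at -0.28 ± 0.094 and Isl2 at -1.5 ± 0.61. Isl2, also a sensory neuron gene, reached 15.5 CPM in 1 wt library.

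A set of 3 transcripts antisense to or between Hox genes was found, and none was called for genotype (adjusted p = 1.0 by edgeR). Hotair, transcribed from between Hoxc11 and Hoxc12, had 4.26, 6.12, 4.54 and 5.88 CPM in female wt 1, female wt 2, male wt 6 and female P278KY 4, then 2.9 CPM in male P278KY 13 and 0.146 to 1.42 CPM in the other 7. It therefore picked out the same libraries as its neighbours. Hoxa11os, antisense to Hoxa11, ran from 0.146 to 5.0 CPM with an SD of log2 CPM of 1.3, close to the 1.2 of Hoxa11. Hoxb3os stood at 19 to 30.4 CPM with an SD of 0.22, close to the 0.23 of Hoxb3. Counts of antisense partners are uncertain, since the strand setting of the counting is not given in the sources used here.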

How the data were processed

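The deposited gene files hold RSEM expected counts, TPM and FPKM values for 38924 genes per library, computed by the authors. Per the labels' protocols, libraries were stranded, poly(A)-selected and read as paired ends. The submitters' processing notes name Bowtie2 2.2.0 and RSEM 1.2.12, while no build, annotation or strand option was stated in what was used here. Expected counts were rounded, filtered with filterByExpr over the 4 groups (minimum count 10), scaled by TMM and tested with edgeR 4.0.16 (R 4.3.3) by quasi-likelihood with labelled sex and genotype as terms and Benjamini-Hochberg adjustment over 17995 genes at a threshold of 0.05. Within-sex effects and their difference are contrasts of 4 group means. An SE is the fold change divided by the root of F. Log2 CPM used a prior count of 2. TPM compared genes, FPKM only alternative shares. DESeq2 1.42.0, limma 3.58.1, other scalings and filters, and each library left out were alternatives. Correlations used 100000 permutations (scipy 1.17.1). On simulated data with 50 genes changed per size over 17845 genes, the genotype test recovered 10 at a fold of 1.25, 33 at 1.5, 43 at 2 and 45 at 4, with 6 false calls. The changed genes were drawn at random above a low level cut. This recovery does not carry over to the Hox members of paralogs 10 to 13. Their biological coefficient of variation in edgeR was 43.7% to 290%, against 23.9% in common over all genes. Positions are GENCODE M21 on GRCm38, joined by Ensembl gene ID, and promoters are RefSeq GRCm38.p6. Members and gene lists were chosen with earlier results of these data known. Genes are named by rule: the 6 members with the smallest genotype p, the Hoxa members (single values of some genes are not reported here), the 2 with the smallest p in other contrasts and lists, the top TPM of each cluster, the 4 widest and 4 steadiest, and the correlated pairs. Other named members complete the family, with single libraries picked after their values were seen.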

Additional observations from a re-analysis of the deposited data

Results flagged for a closer look

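In a group of 6 libraries, 1 value stood apart from the rest for 2 of 74 gene and genotype groups examined, and chance alone flags about 1 in 20 groups. Hoxa13, a tail-end gene, stood at 0.62 log2 CPM in female P278KY 4 and at -4.03 to -2.7 in the other 5 P278KY libraries, so that the gap took up 0.714 of the whole range. Hoxb13, from another cluster, stood at 2.36 log2 CPM in the same library and at -4.03 to -2.42 in the others, a gap of 0.747 of the range. Without that library the genotype log2 fold changes moved from -1.47 to -3.76 for Hoxa13 and from -1.42 to -4.83 for Hoxb13, neither of them called.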

How the results depend on the processing

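No paired analysis was possible because the groups share no mouse numbers. No Hox member was called under any alternative run. The number of genes called over all genes, 1 by edgeR, was 0 with a stricter filter, 33 with DESeq2, 2 with no sex term, 0 without both sex-discordant libraries and 4 with the Hox axis value as a further term, which was chosen after seeing the data; leaving out 1 library gave 1 to 3 (3 without female wt 2, 2 without female P278KY 10). The SD of the caudal-minus-rostral value was 1.33 on log2(TPM + 1) against 2.14. On that scale Hoxa4 with Hoxb4 and Hoxb4 with Hoxc4 each gave r = 0.5 (adjusted permutation p = 0.113), on residuals 0.5 and 0.47, and the latter pair 0.58 without 2 libraries. Of 572 fold changes of 25 genes (Gars included) under alternatives, 507 kept their sign and 65 did not, none of them called, and the cause was not tested. Those that changed sign were, with library totals, Hoxa2 -0.0045, Hoxa6 -0.0047, Hoxa9 -0.0026, Hoxb4 -0.0061, Hoxb6 -0.0055. With limma-trend on log2(TPM + 1) they were Hoxa2 -0.0046, Hoxa6 -0.02, Hoxa9 -0.09, Hoxd8 -0.04, Hoxb4 -0.02, Hoxb6 -0.02. Without both sex-discordant libraries they were Hoxa3 0.05, Hoxa9 -0.16, Hoxd8 -0.0089. With the Hox axis term they were Hoxa2 -0.03, Hoxa6 -0.04, Hoxa10 0.17, Hoxa11 0.3, Hoxa13 0.12, Hoxb8 0.0092, Hoxb4 -0.0012, Hoxc11 0.43, Hoxb13 0.39, Hoxc12 1.35, Hoxc13 0.92. That term is formed from members of paralogs 4 to 6 and 10 to 13, so for those members these values are no check. Leaving out each library in turn, ranges that crossed 0 were Hoxa2 -0.06 to 0.1, Hoxa3 -0.08 to 0.04, Hoxa6 -0.05 to 0.12, Hoxa9 -0.12 to 0.09, Hoxa11 -0.69 to 0.11, Hoxa13 -3.76 to 0.09, Hoxb8 -0.08 to 0.05, Hoxd8 -0.02 to 0.06, Hoxb4 -0.03 to 0.04, Hoxb6 -0.05 to 0.05, Hoxc11 -1.42 to 0.33, Hoxb13 -4.83 to 0.86, Hoxc12 -2.27 to 0.64, Hoxc13 -3.3 to 0.55. Precision was lowest for Hoxb1, Hoxd12 and Hoxd13, with at most 8, 6 and 13 counts per library.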

Other observations

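The genes whose log2 CPM followed the caudal-minus-rostral value most closely over the 12 libraries, among genes with a mean of at least 1 CPM outside the Hox family, are given as a description chosen after the values were seen. The points share library scaling. Hotair led with r = 0.96 (rho = 0.96). Pou2f2, a POU-domain transcription factor, followed with r = 0.95 over 2.92 to 4.74 CPM, and Sorcs1, a sorting receptor of neurons, with r = 0.94 over 58.7 to 87.5 CPM. Rsph4a and Dnah9, which build motile cilia, each had r = 0.93, at 3.7 to 9.5 CPM and 5.58 to 14.5 CPM. In the opposite direction stood Sgms2 (r = -0.92), Cyb5 (r = -0.92) and the bone genes Sp7 (r = -0.91) and Bglap (r = -0.88, 0.294 to 9.0 CPM).

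Marker lists of other tissues were read from the genotype fit, and none of their genes was called by edgeR. All 10 skeletal muscle genes were fitted higher in P278KY, with a median log2 fold change of 2.739, and Myh3 stood at 0.588 to 18.7 CPM in wt and 1.48 to 42.3 CPM in P278KY. None of 8 tested sensory ganglion genes was fitted higher (median -2.248), and Scn10a ran from 0.43 to 96.9 CPM in wt and from 0.0315 to 1.8 CPM in P278KY. None of 9 Schwann cell genes was fitted higher (median -0.751). Medians were 0.263 over 10 cartilage and bone genes, 0.183 over 9 meningeal and fibroblast genes, 0.075 over 10 glial genes, -0.006 over 10 spinal neuron genes, -0.085 over 10 hindbrain and midbrain genes, and 0.198 over 4 forebrain genes.

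With the caudal-minus-rostral value as a further term, an alternative chosen after seeing the data, edgeR called 4 genes over all genes: Fgf21 at 6.71 ± 0.62 (adjusted p = 0.00293), Slc7a3 at 0.48 ± 0.055 (adjusted p = 0.0141), Atf4 at 0.34 ± 0.043 (adjusted p = 0.0297) and Cars at 0.38 ± 0.052 (adjusted p = 0.0412). Fgf21 is a stress hormone, Slc7a3 an amino acid transporter, Atf4 a regulator of the amino acid response and Cars the cysteinyl-tRNA synthetase. Without the term their adjusted p was 0.00137, 0.312, 0.123 and 0.107. No Hox member was called with it.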
